A study of Mus musculus with 4 samples.

Results

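Transcription factors that set cone and photoreceptor identity were measured in whole mouse retina after Nrl was deleted in the adult. The group holds 8 genes, Thrb, Rxrg, Sall3, Neurod1, Prdm1, Rax, Six3 and Six6, taken by name from 19421 genes measured on the arrays. Each of the 8 was read by 1 probe set carrying that symbol alone. The question was whether acute loss of Nrl raises a cone or a progenitor programme against control.

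The knockout retinas came from Nrl flox/flox; CAG-CreERTM mice and the control retinas from Nrl flox/+; CAG-CreERTM mice. Control animals thus kept an Nrl allele that was not floxed, beside a floxed one open to the same Cre. Each difference sets animals with both alleles floxed against animals with a single floxed allele. Both genotypes carried the same Cre recombinase, which is driven by the broadly active CAG promoter and works once tamoxifen binds it, and both received 4-hydroxytamoxifen intraperitoneally each day from postnatal day 42 to 44. Retinas were taken on postnatal day 63, which was 19 days after the last dose. Each genotype had 2 arrays, and each array held RNA from 4 retinas of 2 animals.

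Nrl is a leucine zipper factor that directs photoreceptor precursors to the rod fate, and mice that lack it from the start of development make cone-like cells in place of rods. Cones are thought to be the outcome of a precursor that does not switch Nrl on. In cones, the thyroid hormone receptor β encoded by Thrb, with its partner Rxrg, patterns the opsins, and Sall3 activates cone genes. Neurod1 and Prdm1 act in photoreceptor precursors, Neurod1 also in mature photoreceptors, while Rax, Six3 and Six6 belong to the homeobox factors of the early eye field and of retinal progenitors.

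Of the 8 factors, 0 rose and 0 fell after adjustment over all genes, where 0.201% of genes were called at an adjusted p under 0.05 with limma (39 of 19421). The smallest absolute log2 difference among the 39 called genes was 0.88, larger than that of any of the 8, so smaller changes could be missed. Neurod1 stood nearest to a call, at a log2 difference of 0.41 (SE 0.11), or 133% of the control signal, and it was the 1 member of 8 with an unadjusted limma p under 0.05, where 7.07% of all genes had one. The cone nuclear receptors Thrb and Rxrg had −0.16 and −0.04, and the eye field factors Rax, Six3 and Six6 lay between −0.06 and 0.08. Differences are given as knockout minus control in log2 units of the deposited values, SE is limma's moderated standard error, and n is 2 arrays per genotype throughout.

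RefSeq promoter windows (GRCm38.p6) were searched after those of a chromosome had been left out. The windows kept covered 6 of the 8 genes, 8 windows in all, Thrb and Rxrg with a pair each. Sall3 and Rax were not among them. The 250 bases before each annotated start were searched on both strands for TAATCC, the core bound by Crx and Otx2, for TGCTGA, part of the site of Nrl and its Maf relatives, and for AGGTCA, the unit that nuclear receptors bind, Thrb and Rxrg among them. Over the 32851 windows of this length that were kept, 6.25% held TAATCC, 16.1% held TGCTGA and 14.0% held AGGTCA. The 3 windows below are shown because Neurod1 came closest to a call, Six6 is the other member whose window held the Nrl letters, and the first Thrb window held the Crx and nuclear receptor letters. Capitals mark these letters in either orientation, each sequence runs 5′ to 3′ along the gene's strand, and a match describes letters and not a bound site.
Neurod1 (chr2:79456637-79456886, minus strand): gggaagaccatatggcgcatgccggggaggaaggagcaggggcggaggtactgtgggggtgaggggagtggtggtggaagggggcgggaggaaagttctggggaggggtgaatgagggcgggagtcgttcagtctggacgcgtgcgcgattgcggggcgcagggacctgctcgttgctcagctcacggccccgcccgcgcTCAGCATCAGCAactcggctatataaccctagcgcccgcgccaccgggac
Six6 (chr12:72939632-72939881, plus strand): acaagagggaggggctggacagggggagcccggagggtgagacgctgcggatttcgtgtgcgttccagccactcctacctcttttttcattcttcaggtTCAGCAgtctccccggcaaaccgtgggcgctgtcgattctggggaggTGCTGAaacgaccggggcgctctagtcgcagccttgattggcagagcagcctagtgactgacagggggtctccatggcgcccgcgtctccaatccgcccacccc
Thrb (chr14:17660710-17660959, plus strand): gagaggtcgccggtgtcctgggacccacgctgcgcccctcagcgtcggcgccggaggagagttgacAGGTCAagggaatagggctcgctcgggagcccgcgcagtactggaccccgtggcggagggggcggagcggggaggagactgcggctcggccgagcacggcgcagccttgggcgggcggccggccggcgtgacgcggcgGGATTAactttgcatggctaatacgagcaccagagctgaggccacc
In Neurod1 both matches to TGCTGA lay on the opposite strand, side by side, 50 and 44 bases before the start. In Six6 a match lay on each strand, 151 and 104 bases before the start. The second Thrb window, at chr14:17981394-17981643, held 0 of the 3 sets of letters, and the second Rxrg window held AGGTCA 88 bases before its start. Which Thrb isoform begins at either window was not established here. The windows of Prdm1 and Six3 and the first window of Rxrg held 0.

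Nrl, the deleted gene, stood at 7.57 and 7.05 in the knockout pools, against 8.21 and 8.13 in the control pools, a difference of −0.86 (SE 0.18, limma adjusted p = 0.289). No source used here places its probes inside or outside the deleted stretch, so this is a limited check of the labels. Medians over all probe sets lay between 5.99 and 6.04 on the 4 arrays. The tissue label was checked on rod Gnat1, cone Gnat2 and Pax6 of inner retinal neurons, which lay above those medians on every array. Xist, which coats the inactive X chromosome, was at 4.07 and 10.66 on knockout arrays 1 and 2 and at 4.09 and 10.47 on control arrays 1 and 2, and the Y-linked Kdm5d and Uty ran the other way. Replicate numbers thus followed the sex of the pools, and each member is given within replicate numbers too.

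Thrb, the receptor through which thyroid hormone favours M opsin over S opsin in cones, stood at 7.32 and 7.44 log2 units in the knockout pools, against 7.61 and 7.47 in the control pools. Both knockout arrays lay below both control arrays, by a narrow margin in replicate 2. The within-replicate differences were −0.29 and −0.03. The 95% interval of the difference ran from −0.43 to 0.10, which corresponds to 0.74-fold to 1.07-fold of control (limma adjusted p = 0.850). Thrb makes a cone isoform and a widely expressed isoform from separate starts, and the levels given here do not separate them.

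Rxrg encodes the retinoid X receptor γ, which pairs with the thyroid hormone receptor and helps to repress S opsin. It had levels of 4.80 and 4.56 in knockout retinas and of 4.68 and 4.76 in control retinas. The genotypes overlapped, and the difference was 0.13 in replicate 1 and −0.20 in replicate 2. Pooled, it was −0.04 (SE 0.12, limma adjusted p = 0.982), with an interval of 0.80-fold to 1.19-fold. Its mean signal lay at the 17.3 percentile of all genes, and without detection values such a level cannot be told from background.

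Sall3, a zinc finger factor that activates cone genes and acts in horizontal cells, had log2 levels of 5.59 and 5.96 on the knockout arrays, against 5.78 and 5.78 on the control arrays. Its knockout arrays lay on either side of the control pair. The difference of −0.01 (SE 0.14, limma adjusted p = 0.998) was the smallest of the 8, and its interval ran from 0.78-fold to 1.27-fold. Within replicates it was −0.20 and 0.19.

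**Figure D1:**
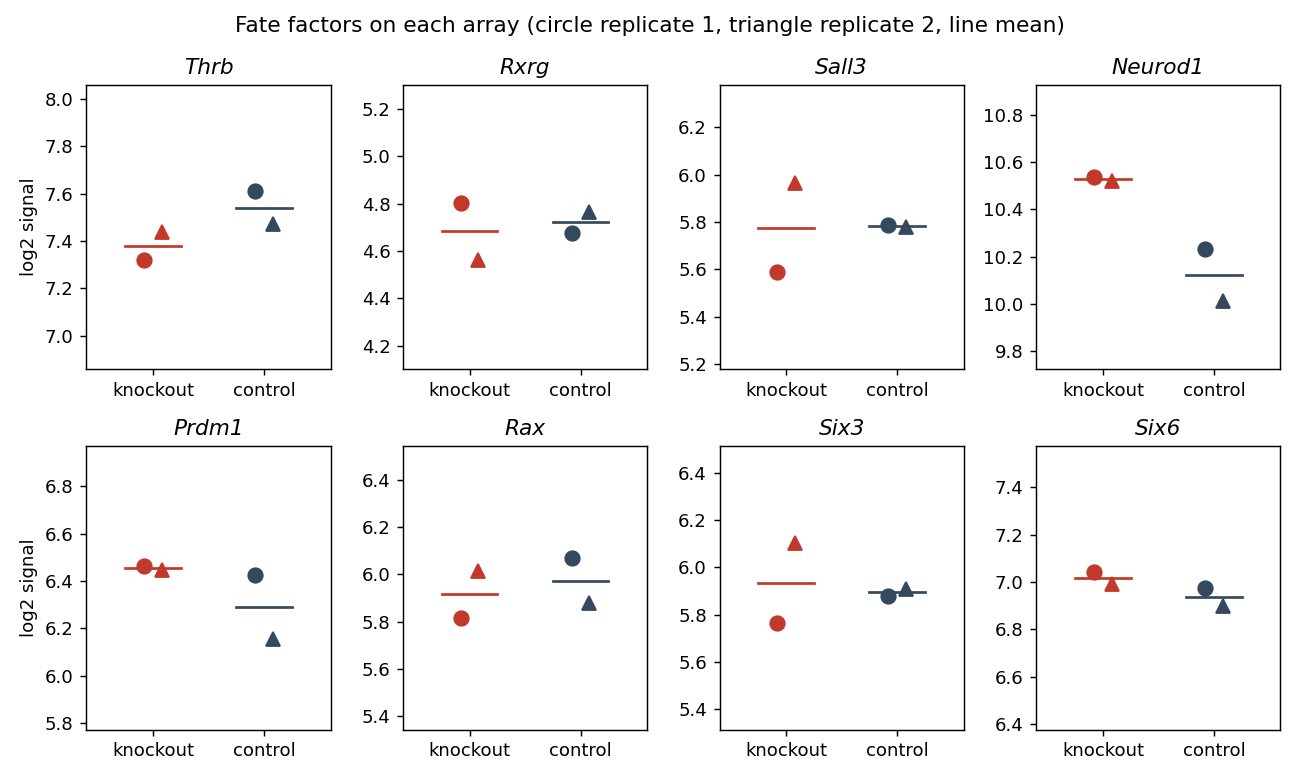
Log2 signal of each fate factor on every array, knockout left and control right, with circles for replicate 1, triangles for replicate 2 and a line at the mean of 2 arrays. Each panel spans the same range of log2 units around its own centre; Neurod1 shows the widest gap, with knockout arrays at 10.54 and 10.52 and control arrays at 10.23 and 10.01.

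Neurod1, a basic helix-loop-helix factor that sustains photoreceptors and also marks some amacrine cells, had levels of 10.54 and 10.52 in knockout retinas. In control retinas it had 10.23 and 10.01. Both knockout arrays lay above both control arrays, and the mean was 10.53 ± 0.01 in knockout and 10.12 ± 0.15 in control (SD, n = 2 each). The difference was 0.31 in replicate 1 and 0.51 in replicate 2, and its interval of 1.09-fold to 1.61-fold lay above 1 before any correction. The limma adjusted p over all genes was 0.504, and 96.9% of genes had a smaller absolute difference. Without control replicate 2 the difference was 0.30 and its unadjusted limma p 0.0547.

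Rod genes were lower in the same retinas. Summed signal of the rod programme list, in which 4 of 13 measured genes fell, was 15599 and 15378 in the knockout pools, against 29822 and 28520 in the control pools (sum of unlogged values). The 4 were Gnat1, Gnb1, Reep6 and Rom1, against 0.0618% of all genes called lower; without either control replicate 0 were called, 2 were without either knockout replicate or with the replicate number as a block, and 9 were with a variance trend. In this list 11 genes had an unadjusted limma p under 0.05, and all of these were lower, where 3.37% of all genes were lower at that p. Amacrine markers summed to 1393 and 1359 in knockout retinas and 1478 and 1474 in control retinas, with 0 of 10 called. The part of either in the level of Neurod1 was not tested. In whole retina, fewer cells of a type and less RNA per cell cannot be told apart.

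Prdm1, also called Blimp1, blocks the bipolar fate in young photoreceptors and acts in lymphocytes and macrophages as well. Its levels were 6.46 and 6.44 in the knockout pools, against 6.42 and 6.15 in the control pools. The knockout arrays lay above both controls, in replicate 1 by 0.04 and in replicate 2 by 0.29. Pooled, the difference was 0.17 (SE 0.12, limma adjusted p = 0.865), with an interval of 0.91-fold to 1.38-fold. Of 9 microglia markers Ctss and Tyrobp rose and 0 fell, where 0.139% of all genes were called higher, and Tmem119, a marker of resident microglia chosen after its value was seen, had −0.40 (limma adjusted p = 0.403). The 9 summed to 1191 and 1111 in knockout retinas against 618 and 607 in control retinas. These 2 calls were lost with the replicate number as a block (limma adjusted p = 0.0539 and 0.07295) and when any 1 array was left out, where the differences of Ctss and Tyrobp lay between 1.03 and 1.68, against 1.53 and 1.12 with all arrays. The part of these cells in the level of Prdm1 was not tested.

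Rax, the retinal homeobox factor of progenitors, Müller glia and photoreceptors, had 5.82 and 6.01 in knockout retinas and 6.07 and 5.88 in control retinas. The genotypes overlapped, and the difference was −0.25 in replicate 1 and 0.14 in replicate 2. Its pooled value was −0.06 (SE 0.12, limma adjusted p = 0.976), and its interval ran from 0.78-fold to 1.18-fold.

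Six3, which specifies the eye field and is kept in some inner retinal neurons, had 5.76 and 6.10 on the knockout arrays, against 5.88 and 5.91 on the control arrays. The control pair lay inside the knockout range. The difference was 0.04 (SE 0.14, limma adjusted p = 0.984), with an interval of 0.82-fold to 1.29-fold and replicate values of −0.12 and 0.19.

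Six6, the close relative of Six3 that promotes progenitor division, had 7.04 and 6.99 in the knockout pools, against 6.97 and 6.90 in the control pools. Knockout lay above control on all arrays, by 0.07 in replicate 1 and 0.09 in replicate 2, the closest pair of replicate values among the 8. The pooled difference was 0.08 (SE 0.10, limma adjusted p = 0.940), with an interval of 0.90-fold to 1.25-fold.

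Across the 8 factors, 4 differences were positive and 4 negative, and their median was 0.02, against −0.003 over all genes. The genotypes did not overlap in 4 members, 3 with knockout higher (Neurod1, Prdm1 and Six6) and 1 with knockout lower (Thrb). Over all genes 35.4% did not overlap, 17.0% with knockout higher and 18.4% with knockout lower. Both replicate differences had the same sign in these 4 members, as they did in 54.6% of all genes. The 95% intervals of all 8 ended at or below 1.61-fold, and those of the 7 other than Neurod1 lay between 0.74-fold and 1.38-fold.

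**Figure D2:**
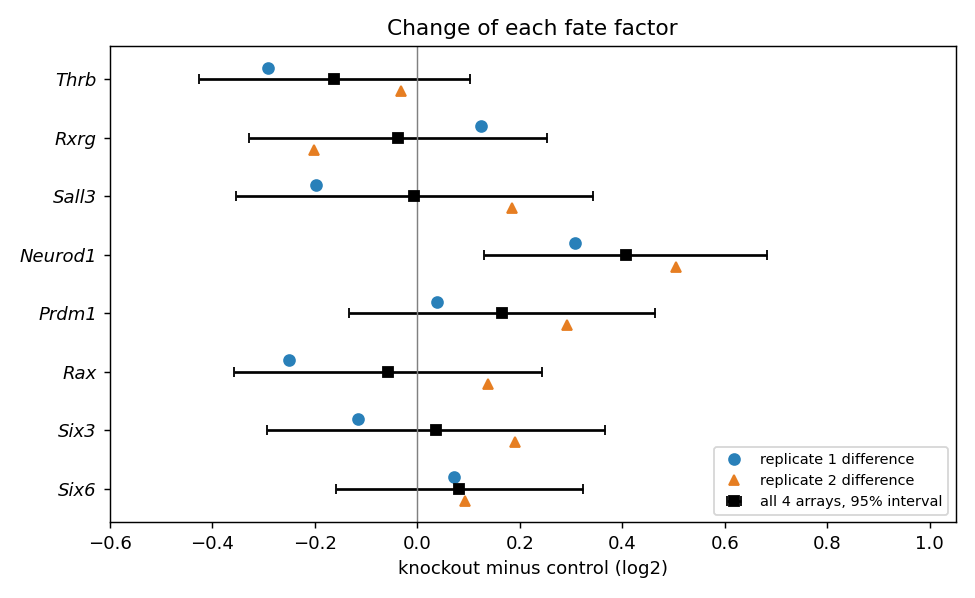
Knockout minus control difference (log2) of each fate factor, with squares for all 4 arrays, bars for the 95% interval from limma, circles for replicate 1 and triangles for replicate 2. Neurod1 is the single factor whose interval, 0.13 to 0.68, does not include 0, and in Rxrg, Sall3, Rax and Six3 the replicates lie on opposite sides of 0.

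The paralogs of the factors, chosen as a list, also had 0 calls. Of 15 measured, 8 differences were positive and 7 negative, their median was 0.005 and their range −0.27 to 0.13. An unadjusted limma p under 0.05 was found for 0 of the 15, where 7.07% of all genes had one. Sall2, a relative of Sall3, had 5.25 and 5.43 in knockout retinas against 5.73 and 5.49 in control retinas, a difference of −0.27 (SE 0.13, limma adjusted p = 0.763). Rxrb, a broadly expressed retinoid X receptor, had 0.13 (SE 0.12, limma adjusted p = 0.904). Neurod4, a relative of Neurod1 in bipolar and photoreceptor precursors that was chosen after its value was seen, had 9.77 and 9.77 in the knockout pools, against 9.90 and 9.68 in the control pools, a difference of −0.02 (SE 0.11, limma adjusted p = 0.993).

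Genes that supply or read thyroid hormone and pair with retinoid X receptors gave 0 calls of 13, with a median of −0.01 and a range of −0.63 to 0.80. Crym, a cytosolic thyroid hormone binding protein, had 7.98 and 8.16 in knockout retinas and 7.24 and 7.30 in control retinas. That is a difference of 0.80 (SE 0.11), short of the threshold (limma adjusted p = 0.0965). Slco1c1, a thyroxine transporter of blood vessels, had 5.97 and 6.32 in knockout retinas and 6.73 and 6.82 in control retinas, a difference of −0.63 (SE 0.14, limma adjusted p = 0.329). In both genes the genotypes did not overlap, as in 35.4% of all genes, and the 2 differences ran in opposite directions. Both were named for having the smallest p of the list.

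Cofactors of the sine oculis homeobox family, to which Six3 and Six6 belong, were taken from the Eya and Dach families and the Groucho-type corepressors of the Tle family. They had 0 calls of 10 and a median of 0.002. Tle4, a corepressor, had 6.99 and 7.03 in knockout retinas and 6.68 and 6.69 in control retinas. Its difference of 0.33 (SE 0.10) had a limma adjusted p of 0.546. Eya1, a phosphatase and coactivator of some members of that homeobox family, had −0.19 (SE 0.11, limma adjusted p = 0.810).

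Other regulators of photoreceptors, a list that also holds the deleted Nrl, had 0 calls of 18. In it 12 differences lay below 0 and 6 above, with a median of −0.08. In this list 4 genes had an unadjusted limma p under 0.05, and all of these were lower in knockout, where 3.37% of all genes were lower at that p. The 4 were Nrl itself, Mef2c, Esrrb and Nr2f1. Mef2c, a MADS-box factor of photoreceptors, had 8.57 and 8.55 in knockout retinas against 9.01 and 9.01 in control retinas, a difference of −0.45 (SE 0.10, limma adjusted p = 0.305). Otx2, which sets the photoreceptor lineage upstream of Crx, had 9.33 and 9.23 in knockout retinas against 9.21 and 9.21 in control retinas, at 0.07 (SE 0.10, limma adjusted p = 0.955). Crx, the homeobox factor shared by rods and cones, had 8.04 and 8.15 in knockout retinas and 8.34 and 8.27 in control retinas, at −0.20 (SE 0.10, limma adjusted p = 0.777).

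Among genes that cones use, the β and α subunits of cone transducin rose, and the opsins were not called. In the cone programme list 2 of 17 genes rose, Gnb3 and Gnat2, which encode these subunits, 0 fell and 15 did not pass, against 0.139% of all genes higher and 0.0618% lower. Gnb3 had 9.46 and 9.28 in knockout retinas against 7.99 and 7.56 in control retinas (1.59, SE 0.16, limma adjusted p = 0.0366). Gnat2 had 10.82 and 11.01 in knockout retinas against 9.90 and 9.74 in control retinas (1.10, SE 0.12, limma adjusted p = 0.0402). The list's median was 0.06 and its mean 0.26, with 9 differences above 0 and 8 below. An unadjusted limma p under 0.05 was found for 7 of the 17, where 7.07% of all genes had one. Of these, 5 were higher (Gnb3, Gnat2, Pde6c, Fabp7 and Cd59a) and 2 lower (Opn1sw and Kcne2). Gngt2, the γ subunit of cone transducin, chosen after its value was seen, had 9.38 and 9.42 in knockout retinas against 9.66 and 9.42 in control retinas, a difference of −0.14 (limma adjusted p = 0.899). With a variance trend 4 of the list rose and 2 fell. After quantile normalization of the deposited values, after centring each array on its median or without the dimmer genes, 3 rose and 0 fell. With the replicate number as a block 0 were called (limma adjusted p = 0.0623 for Gnb3 and 0.132 for Gnat2). Without any 1 of the 4 arrays 0 of the list were called, with Gnb3 between 1.38 and 1.81 and Gnat2 between 1.003 and 1.19.

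The opsins that Thrb and Rxrg pattern did not pass. Opn1sw, the S opsin gene, had 9.31 and 9.42 in knockout retinas and 9.83 and 9.95 in control retinas, with both knockout arrays lower. Its difference was −0.52 (SE 0.11, limma adjusted p = 0.281), and −0.52 in each replicate. Opn1mw, the M opsin gene, had 7.91 and 8.04 in knockout retinas against 8.32 and 8.08 in control retinas. Its difference was −0.22 (SE 0.12, limma adjusted p = 0.793), with −0.41 in replicate 1 and −0.04 in replicate 2. Neither opsin was higher on any knockout array than on a control array, where 18.4% of all genes lay lower in knockout without overlap.

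In the progenitor regulators list 0 of 12 genes were called and 0 had an unadjusted limma p under 0.05. Over all genes these shares were 0.201% and 7.07%, so counts of 0 in a list of this size say little. The median was 0.06, with 9 differences above 0 and 3 below and a range of −0.20 to 0.18. Over all genes 9526 differences lay above 0 and 9894 below. Sox2, a progenitor factor that Müller glia keep, had 7.33 and 7.24 in knockout retinas and 7.12 and 7.15 in control retinas, a difference of 0.16 (SE 0.10, limma adjusted p = 0.840). Pax6, the eye field factor kept in amacrine and ganglion cells, had 9.04 and 9.08 in knockout retinas and 8.97 and 9.03 in control retinas, at 0.06 (SE 0.10). Neurog2, a proneural factor, had −0.17 and Sox9, of progenitors and Müller glia, 0.18.

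Progenitor signalling and cell cycle genes gave 0 calls of 12, with a median of 0.11. Fgf15, a growth factor of progenitors, had 5.88 and 5.77 in knockout retinas and 5.57 and 5.55 in control retinas, a difference of 0.26 (SE 0.10, limma adjusted p = 0.670). It was the single gene of the list with an unadjusted limma p under 0.05, where 7.07% of all genes had one. Ccnd1, the cyclin D1 of dividing progenitors, had 0.11 (SE 0.10, limma adjusted p = 0.903).

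**Figure D3:**
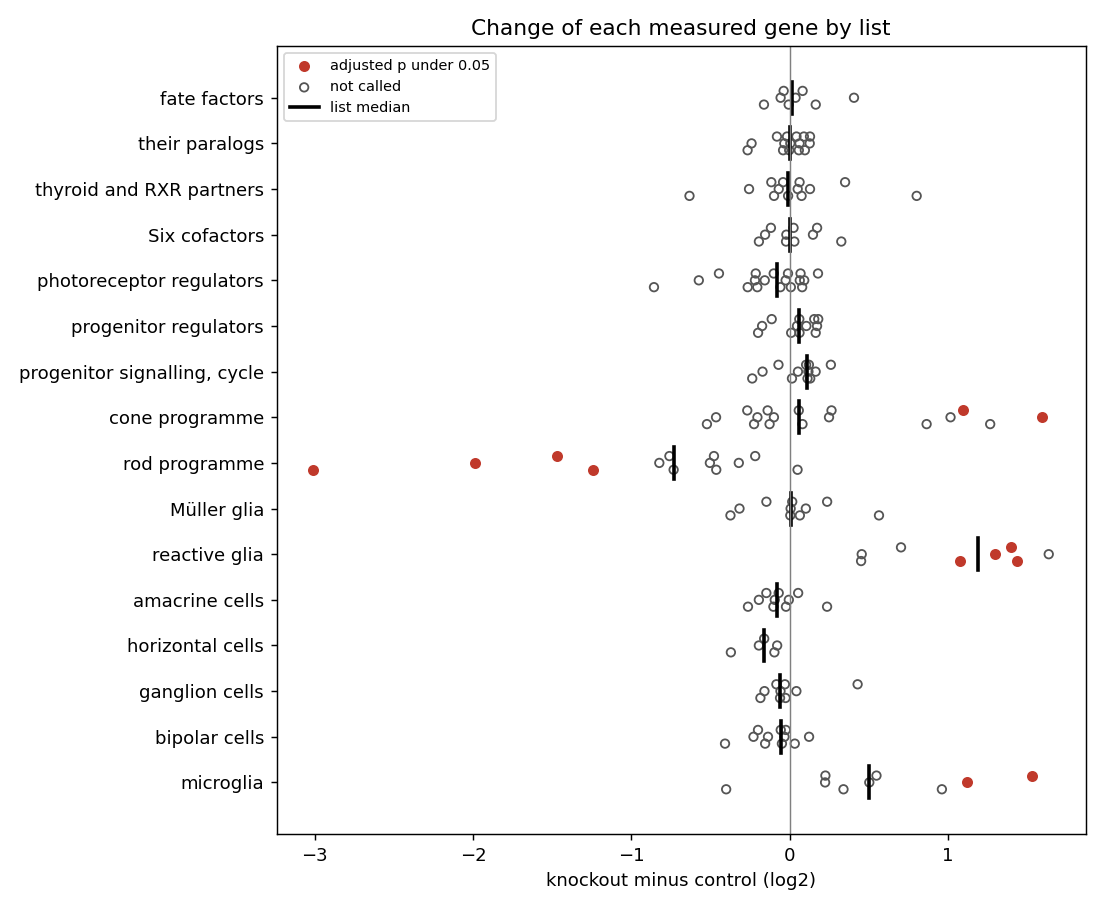
Knockout minus control difference (log2) of every measured gene in 16 lists, with filled points for an adjusted p under 0.05, open points for genes not called and a black bar at the list median. Filled points lie only in the cone programme, rod programme, reactive glia and microglia lists. All other lists hold open points alone, the 8 fate factors, their paralogs and both progenitor lists among them. The rod programme has a median of −0.73 and reactive glia one of 1.19.

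Several of the 8 factors are also expressed outside photoreceptors, so markers of the other retinal cells were read beside them. Müller glia markers, of cells that keep Rax, had 0 calls of 10 and a median of 0.01, with Vim at 0.56 and Glul at −0.37. Horizontal cell markers, of cells that express Sall3, had 0 calls of 5 and a median of −0.16, with Calb1 at −0.37 and Lhx1 at −0.19. Amacrine markers had a median of −0.08, with Gad1 at −0.26 and Gad2 at −0.19, and ganglion cell markers 0 calls of 9 and a median of −0.06, with Pou4f3 at 0.43 and Nefh at −0.18. Bipolar markers had 0 calls of 11 and a median of −0.06, with Tacr3 at −0.41 and Lhx4 at −0.23. Reactive glia markers had 4 calls of 8, A2m, Cebpd, Osmr and Stat3, all higher, where 0.139% of all genes were called higher. Under the replicate block 0 of the 8 were called, and 0 or 1 with any 1 array left out.

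The 3 genes whose mean-centred levels over the 4 arrays lay closest to those of Neurod1 were Krtap3-3, Sulf1 and Trim30d, at Euclidean distances of 0.015, 0.028 and 0.034 log2 units. Their differences are therefore close to that of Neurod1, at 0.41 for Krtap3-3. The likeness is a description over 4 arrays, and 34 genes, 0.175% of the other genes, lay within 0.1. Krtap3-3 and Trim30d had mean signals at the 19.0 and 10.2 percentiles of all genes, and Sulf1 at the 80.9 percentile. Without detection values the levels of Krtap3-3 and Trim30d cannot be told from background.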

How the data were processed

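Expression was measured on 4 arrays of mouse retina, 2 per genotype. The deposited table holds the authors' log2 values of 21897 probe sets; the log2 scale was read from their range, since no source states it. Affy and limma are named in the submitters' processing notes, without versions or roles, and background correction and normalization are unstated in the sources used. The deposited scale was kept. The platform annotation gave 20877 probe sets 1 symbol, 175 several and 845 none; those with 1 symbol were used, and the probe set with the highest mean stood for each of 778 genes with several. Of the gene IDs, 34 were not matched to RefSeq (GRCm38.p6) and 0 symbols differed.

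The comparison of genotypes used limma 3.58.1 under R 4.3.3 (eBayes on lmFit, two-sided, Benjamini-Hochberg over 19421 genes, called at an adjusted p under 0.05). Intervals are 95% limma intervals of single genes, not adjusted. Steps were tested on simulated data, where 0.4% of changes of 0.5 log2 units and 48.4% of changes of 1 log2 unit were called. Replicates are pools of different animals, so p-values measure the spread between pools. Since replicate numbers followed the sex of the pools, that spread includes any difference between the sexes unless the replicate number is a block. Leaving an array out also makes the sexes unequal between the genotypes. An exact permutation test cannot pass 0.05 with 2 arrays against 2. The number of arrays limits the precision.

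The 8 members and 17 further lists (193 genes, of which 179 were measured and 14 not analysed here) were chosen with earlier results of these data known. All 8 members are named. In each other list the rule named up to 4 called genes, or the 2 with the smallest p, plus Nrl, Crx, Otx2, both cone opsins, Pax6 and Sox2, and the 3 genes closest to the member with the smallest p. Lists are described by counts and medians, with no test. Alternatives covered normalization, dim probe sets, the probe set per gene, a variance trend, the replicate number as a block and each array left out.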

Additional observations from a re-analysis of the deposited data

How the results depend on the processing

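The 8 fate factors gave 0 calls under all 11 alternatives run, with 0 of 83 single results called; the filters on dim genes left 7 and 4 members. Neurod1 kept its direction in all 11, between 0.30 and 0.52, with limma adjusted p from 0.1305 to 0.991; its unadjusted limma p was above 0.05 (0.0547) without control replicate 2. Thrb, Prdm1 and Six6 also kept theirs. The filters on dim genes, the mean over probe sets, the variance trend and the block leave these differences unchanged by construction. In Neurod1, Thrb, Prdm1 and Six6 the genotypes did not overlap, so leaving out an array could not reverse the direction either. A kept direction under those alternatives is therefore no test of it. With one array left out the difference ran from −0.16 to 0.082 for Rxrg, from −0.19 to 0.18 for Sall3, from −0.16 to 0.042 for Rax and from −0.13 to 0.21 for Six3, so the direction of these 4 changed with single pools. Over all genes, calls numbered 39 (27 higher, 12 lower); they numbered 89 once the dimmer genes, below the 50th percentile of signal, were left out and fewer genes were tested, 128 with a variance trend, 8 with the replicate block (2 of the rod programme, 0 of the cone programme) and 0 to 11 with one array left out (7 without knockout replicate 1, 11 without knockout replicate 2, 0 without either control replicate, where 1355 and 1328 genes had an unadjusted limma p under 0.05). The labels do not say that replicate numbers pair the pools, though the numbers followed the sex of the pools. Deviations from the group means correlated at 0.239 across genes between same-numbered pools, and with the block 0 members were called (Neurod1 limma adjusted p = 0.491). The cone programme median was −0.099 with those dimmer genes left out and ran from −0.0088 (without control replicate 1) to 0.060 (without knockout replicate 2), against 0.058. The cause of shifts other than from the number of genes or arrays was not tested. The members' median ran from −0.02 to 0.11 and that of the progenitor regulators from 0.02 to 0.10 with one array left out. Centring each array on its median moved the median of all genes to −0.016. No detection values were used, and how far Rxrg, the dimmest of the 8, lay above background is not known.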

Other observations

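Markers of cells that could be carried over with the retina had 0 calls. Of 5 lymphocyte genes, read because Prdm1 acts in that lineage, the median difference was 0.07; Jchain, the joining chain of secreted antibodies, had 7.36 and 7.67 in knockout retinas against 7.36 and 7.17 in control retinas (limma adjusted p = 0.804), and Cd3g, of the T cell receptor complex, had −0.21. Of 5 pigment epithelium genes the median was −0.15, with Rpe65, the retinoid isomerase, at 6.72 and 6.37 in knockout retinas and 7.31 and 6.60 in control retinas (limma adjusted p = 0.822).

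Further thyroid hormone genes were chosen after their values were seen. Hr, a corepressor whose gene thyroid hormone induces in brain, had 6.43 and 6.36 in knockout retinas and 5.89 and 6.19 in control retinas, a difference of 0.35 (SE 0.13, limma adjusted p = 0.655). Dio2, the deiodinase that makes the active hormone, had 6.28 and 6.42 in knockout retinas and 6.70 and 6.51 in control retinas, a difference of −0.26 (SE 0.12, limma adjusted p = 0.747).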
